A study of Bos taurus with 22 samples.

Results

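miR-22-3p was the second most abundant miRNA in the plasma of these heifers, and it is described here across all libraries of the series. It was chosen by its mean level, which ranked 2 over the 22 libraries, as the row of the read count table named bta-miR-22-3p. Its abundance and rank are therefore a description and were not tested. It is 1 of 844 mature miRNAs in that table and 1 of the 195 that passed the filter on low levels. Plasma was taken from 11 Holstein-Friesian heifers, 14 to 17 months old and never inseminated before, which were oestrus-synchronised and inseminated. Each heifer gave jugular EDTA plasma on Day 0, the non-pregnant baseline, and on Day 60 of pregnancy, and small RNA of each sample was sequenced. Each day therefore has 11 libraries, 1 per heifer. No heifer was left non-pregnant to Day 60, so pregnancy and the time between samplings cannot be told apart. Plasma holds no cell type of its own.

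miR-22 is a conserved mammalian miRNA. In human and mouse its hairpin is cut from a long non-coding transcript, the 3p arm is the one mostly loaded into Argonaute, and a known target is the mRNA of the histone deacetylase HDAC4. It has been studied mostly in heart and skeletal muscle and in blood cell formation. Both arms were counted here. On chromosome 19 of bosTau4, minus strand, miR-22-3p lies from 22901906 to 22901926 and miR-22-5p from 22901943 to 22901964. The positions span 21 and 22 bases. No other bovine miRNA of the count table lies within 10000 bases of miR-22-3p. In RefSeq's annotation of the later assembly ARS-UCD2.0 the MIR22 gene lies within the span of TLCD2, between PRPF8 and WDR81, and overlaps a second miRNA gene, MIR3600, which was not analysed here. Mature sequences were not used here.

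The Day 0 libraries held 1912290 to 6839128 miRNA reads and the Day 60 libraries 304117 to 12775451, the shallowest being that of heifer 17 on Day 60. miR-22-3p had between 258829 and 687353 reads on Day 0 and between 15432 and 1118927 reads on Day 60. At this depth counting error was small. In the shallowest library its share of the miRNA reads was 5.07%, with a 95% Wilson interval from 4.997 to 5.153%, which covers counting error only.

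On Day 0, 11.5 ± 1.94% (SD, n = 11) of the miRNA reads belonged to miR-22-3p, and on Day 60, 8.70 ± 2.30% (SD, n = 11). On Day 0 its share had a lowest value of 7.73% in heifer 12, a median of 12.0% and a highest value of 13.5% in heifer 14. On Day 60 the lowest share was 4.93% in heifer 14, the median 9.25% and the highest 11.1% in heifer 29. The days overlapped: 8 of the 11 Day 0 libraries exceeded every Day 60 library, and 3 Day 60 libraries were under every Day 0 library. These 3 were heifers 14, 17 and 31, at 4.93%, 5.07% and 5.95%, and they stood apart from the other 8 Day 60 libraries, which began at 8.72%. On Day 0 heifer 14 had the highest share, at 13.5%, heifer 17 the median, at 12.0%, and heifer 31 was at 11.2%. On reads scaled by the bulk of the miRNAs of each library (TMM normalisation), the days overlapped more. There 1 Day 0 library exceeded every Day 60 library, and 2 Day 60 libraries were under every Day 0 library.

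**Figure D1:**
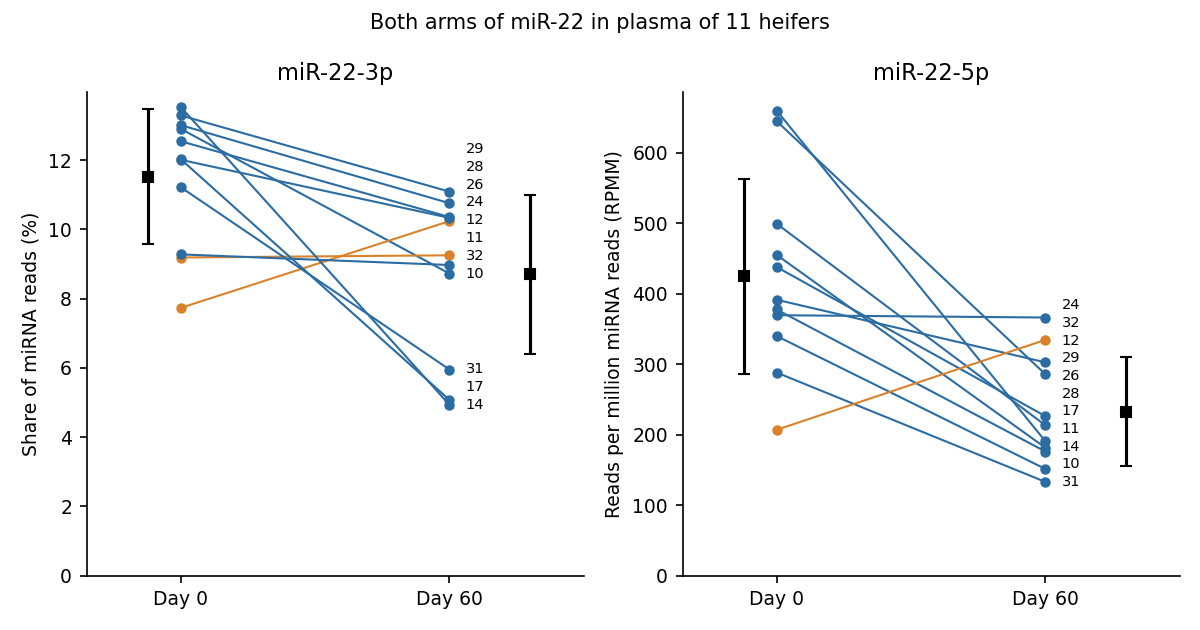
Level of each arm of miR-22 on Day 0 and Day 60, as a share of miRNA reads in % (miR-22-3p, left) and in RPMM, reads per 1000000 miRNA reads (miR-22-5p, right). Each line is 1 heifer, numbered at its Day 60 end in the order of the points; blue lines fall, orange lines rise, and black squares with bars are the mean ± SD of 11 libraries. The share of miR-22-3p was lower on Day 60 in 9 of 11 heifers, with heifers 31, 17 and 14 lowest, and miR-22-5p was lower in 10 of 11.

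In RPMM (reads per 1000000 miRNA reads of the library), miR-22-3p averaged 101084 ± 25314 (SD, n = 22). The miRNA above it was miR-486, a red cell miRNA, at 175203 ± 65791 RPMM. The next below was miR-192, abundant in liver and gut, at 50577 ± 18492 RPMM, followed by miR-27b at 44958 ± 12208 RPMM. miR-22-3p was above miR-192 and miR-27b in all 22 libraries, while miR-486 was above it in 17. On Day 0 miR-22-3p was the most abundant miRNA of 5 libraries, those of heifers 10, 14, 17, 28 and 29, and ranked 2 in the other 6. On Day 60 it led no library, ranked 2 in 8 and ranked 3 in 3, namely those of heifers 14, 29 and 31. In heifers 29 and 31 the smooth muscle miRNA miR-143 led on Day 60, with 17.1% and 21.5% of the reads. In heifer 14 miR-486 held 31.6% of the reads on Day 60, against 11.6% on Day 0.

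The level of miR-22-3p varied little between libraries for a plasma miRNA. Its CV over the 22 libraries was 25.04% in RPMM, rank 24 from the lowest of the 195 tested miRNAs, whose median CV was 40.04%. After TMM normalisation, which scales each library by the bulk of its miRNAs, the CV was 21.1%, rank 11, against a median of 38.2%. Between heifers the CV in RPMM was 16.9% on Day 0 and 26.5% on Day 60. On the log2 RPMM scale the SD was 0.27 on Day 0 and 0.44 on Day 60, but the wider spread on Day 60 did not pass a test. Deviations from the median of the day were 0.13 larger on Day 60 on average, and larger in 7 of 11 heifers (exact sign-flip permutation test, two-sided p = 0.363).

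Whether miR-22-3p changed between Day 0 and Day 60 was tested within heifers. As a share of the miRNA reads the difference, Day 60 minus Day 0, was -2.82 ± 3.22 percentage points (mean and SD, n = 11), and the share was lower in 9 of 11 heifers (exact sign-flip permutation test, two-sided p = 0.0195). Heifers 11 and 12 were the exceptions. With the reads of miR-486 and miR-143 taken out of every library, its share still went from 14.0 ± 1.61% to 11.6 ± 2.70% (SD, n = 11; exact sign-flip permutation test, two-sided p = 0.0234, lower in 9 of 11 heifers). A share also moves with the other miRNAs of the library. On TMM-normalised reads, with edgeR's quasi-likelihood test and heifer as a block, the log2 fold-change was -0.25 (SE 0.16, 95% interval from -0.58 to 0.09) and did not pass, with a false discovery rate (FDR, the Benjamini-Hochberg adjusted p over the 195 tested miRNAs) of 0.221. The unadjusted p of that test in edgeR was 0.134, and levels were lower in 8 of 11 heifers. By heifer, the log2 change ran from -1.02 in heifer 17 and -0.999 in heifer 14 to 0.60 in heifer 12. The other 8 heifers lay between -0.50 and 0.10.

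The size of this change depended on the scaling, as did that of miRNAs in general. Over 6 scalings the log2 fold-change of miR-22-3p went from -0.44 with library totals to -0.16 with scaling to miR-128. The median over the 195 tested miRNAs moved alongside, being -0.06 with TMM, -0.25 for library totals and 0.02 when scaled to miR-128. Relative to that median miR-22-3p lay at -0.19 to -0.17 in all 6, and it ranked 74 from the lowest of the 195 fold-changes each time. A change of scaling shifts all fold-changes by nearly the same amount. The steady rank and distance were therefore nearly fixed in advance and are no support for the change. In edgeR it passed the FDR threshold of 0.05 with upper quartile scaling alone of these 6 (log2 fold-change -0.41, edgeR FDR 0.0433), while library totals gave an edgeR FDR of 0.0659.

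**Figure D2:**
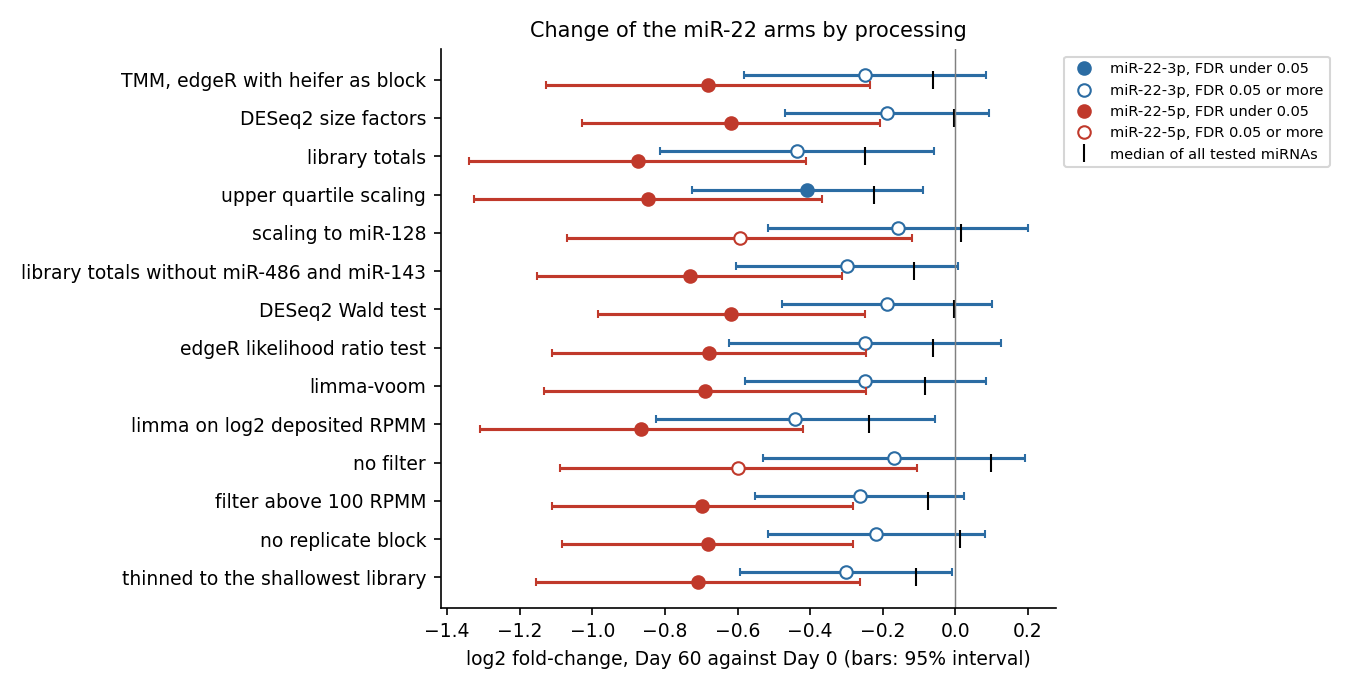
log2 fold-change of both miR-22 arms on Day 60 against Day 0 with its 95% interval (horizontal axis) under 14 ways of processing the counts (vertical axis). Filled points passed the FDR threshold of 0.05, and black ticks mark the median of all tested miRNAs. miR-22-3p (blue) lay below that median in every row and passed with upper quartile scaling only; miR-22-5p (red) lay further down and passed in all but scaling to miR-128 and no filter.

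The other arm of the hairpin, miR-22-5p, was far less abundant and fell on Day 60. On Day 0 its level was lowest in heifer 32 at 207 RPMM, with a median of 391 and a highest value of 660 in heifer 17. On Day 60 it was lowest in heifer 31 at 132.99 RPMM, with a median of 213 and a highest value of 366 in heifer 24. Of the Day 0 libraries 8 exceeded all those of Day 60, and 5 Day 60 libraries were under all those of Day 0. After TMM normalisation these counts were 7 and 4. Its log2 fold-change of -0.68 (SE 0.21) passed the test at an edgeR FDR of 0.0220, with a lower level in 10 of 11 heifers, heifer 32 being the exception. Of the 195 tested miRNAs, 17.9% were lower on Day 60 at this threshold and 17.4% were higher, that is 35 and 34. The split of lower and higher was 57 and 11 with library totals, 58 and 21 with upper quartile scaling, 47 and 31 with totals lacking miR-486 and miR-143, 59 and 17 with limma on deposited RPMM, and 20 and 35 with scaling to miR-128. Scaling to miR-128 (edgeR FDR 0.0589) and leaving out heifer 28 (edgeR FDR 0.0522) each ended the call. In the shallowest library miR-22-5p rested on 58 reads.

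The ratio of the arms does not depend on the scaling, since both are counted in the same library. On Day 0 there were between 182 and 448 reads of miR-22-3p for each read of miR-22-5p, with a median of 287, and on Day 60 between 266 and 576, with a median of 388. The ratio was higher on Day 60 in 8 of 11 heifers. Its log2 value rose by 0.43 on average (95% interval from 0.00 to 0.85), a ratio of 1.34, which did not pass the exact sign-flip permutation test (two-sided p = 0.0518, adjusted p = 0.104 over 4 ratios). Without heifer 32, where the ratio went the other way most, the mean was 0.54 and the adjusted p was 0.0313 (exact sign-flip permutation test). The 2 arms were therefore not shown to differ in their change.

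miR-22-3p was also set against 3 further miRNAs of the same library. The 4 ratios share miR-22-3p and are not independent. Relative to miR-21-5p, a miRNA abundant in many tissues and blood cells, miR-22-3p fell by 0.60 on the log2 scale (SE 0.15, 95% interval from -0.92 to -0.27), in 9 of 11 heifers (exact sign-flip permutation test, two-sided p = 0.00488, adjusted p = 0.0195). Taking the median of the differences in place of the mean, -0.61, ended this call (exact sign-flip permutation test, adjusted p = 0.125). miR-21-5p itself was at 21384 ± 4590 RPMM (SD, n = 11) on Day 0 and 24166 ± 7058 RPMM on Day 60, and did not pass (log2 fold-change 0.35, edgeR FDR 0.0700). Relative to miR-486 the mean change was -0.69 (95% interval from -1.62 to 0.24), and it was lower in 7 of 11 heifers (exact sign-flip permutation test, two-sided p = 0.142, adjusted p = 0.189). The range over heifers in the ratio to miR-486 was wide, from -3.15 in heifer 17 and -2.91 in heifer 14 to 0.90 in heifer 11. Relative to miR-128, which the study used as a reference, the mean change was -0.16 (95% interval from -0.51 to 0.18; exact sign-flip permutation test, two-sided p = 0.384, adjusted p = 0.384). The ratio to miR-128 was lower in 5 of 11 heifers and higher in 6. Heifers 10, 14 and 17 had the lowest values, at -0.40, -1.10 and -1.17, and the remaining 8 lay between -0.04 and 0.24.

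**Figure D3:**
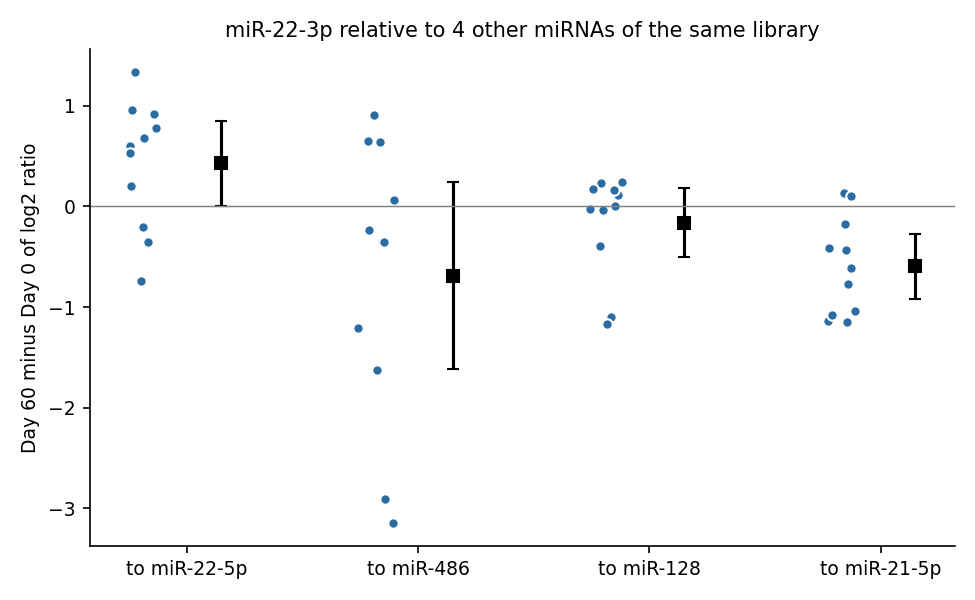
Change from Day 0 to Day 60 in the log2 ratio of miR-22-3p to 4 other miRNAs of the same library (vertical axis, log2 units). Blue points are the 11 heifers and black squares with bars are the mean with its 95% interval. The ratio to miR-21-5p was lower in 9 of 11 heifers, the ratio to miR-22-5p was higher in 8, and the ratio to miR-486 was the most variable.

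The level of a heifer on Day 0 said little of its level on Day 60. Over the 11 heifers, on log2 TMM-normalised reads, Pearson's r came to 0.0331 (permutation p = 0.925, adjusted p = 0.925) and Spearman's rho was 0.209 (permutation p = 0.541, adjusted p = 0.601). Leaving out heifers 12 and 32 gave an r of 0.537. The adjustment covers a family of 10 relations of miR-22-3p. In this family the 2 arms did not pass: r was 0.319 on Day 0 (permutation p = 0.339, adjusted p = 0.423), 0.503 on Day 60 (permutation p = 0.118, adjusted p = 0.237) and 0.444 for the within-heifer changes (permutation p = 0.172, adjusted p = 0.287). Their rho values were 0.264, 0.536 and 0.309 (permutation p = 0.434, 0.0930 and 0.355; adjusted p = 0.544, 0.233 and 0.544). With the 2 heifers farthest from the median of miR-22-5p left out, r was then -0.0128 on Day 0, 0.564 on Day 60 and 0.165 for the changes.

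The relation with library depth differed by scale. On Day 0 r with log2 miRNA reads was -0.417 on TMM-normalised reads (permutation p = 0.203, adjusted p = 0.290; rho -0.455, permutation p = 0.163, adjusted p = 0.325). Leaving out heifers 14 and 17 gave an r of -0.537. In log2 RPMM it was -0.699 (permutation p = 0.0155, adjusted p = 0.0388; rho -0.773, permutation p = 0.00737, adjusted p = 0.0368) and -0.712 without them. The deeper Day 0 libraries thus held a smaller share of miR-22-3p. In log2 RPMM the Day 60 relation did not pass, with r at 0.349 (permutation p = 0.309, adjusted p = 0.387). Nor did that of the within-heifer changes, with r at 0.00776 (permutation p = 0.982, adjusted p = 0.982). On Day 60 r on TMM-normalised reads was 0.598 (permutation p = 0.0683, adjusted p = 0.171; rho 0.264, permutation p = 0.435, adjusted p = 0.544), and it rested on heifers 17 and 28, since without them it was -0.00800. For the within-heifer changes r was 0.208 (permutation p = 0.539, adjusted p = 0.599; rho 0.10, permutation p = 0.776, adjusted p = 0.776), and 0.0655 without heifers 14 and 17.

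miR-22-3p was low where the ratio of miR-451 to miR-23a was high. miR-451 is made in red cells and miR-23a is little affected by their lysis, and the study used their ratio as an indicator of haemolysis. The study reported most plasma samples to lie under its limit for this ratio, which it took as absence of haemolysis. Here the ratio was taken from reads, and its values were not set against that limit. The Day 0 values lay between 0.935 and 13.4 (median 1.83) and the Day 60 values between 4.36 and 27.7 (median 8.56). The 3 libraries lowest in miR-22-3p on Day 60, of heifers 14, 17 and 31, had the 3 highest ratios, 22.5, 21.6 and 27.7, while the other 8 reached 14.1 at most. On Day 0 heifers 12 and 32, among the 3 lowest in miR-22-3p, had the highest ratios at 8.24 and 13.4.

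Over the within-heifer changes r between log2 TMM-normalised miR-22-3p and the log2 ratio was -0.835 (permutation p = 0.00239, adjusted p = 0.0239) and rho was -0.764 (permutation p = 0.00823, adjusted p = 0.0805). Leaving out heifers 17 and 32 gave -0.867. For Day 60 alone r was -0.765 (permutation p = 0.00500, adjusted p = 0.0250; rho -0.718, permutation p = 0.0161, adjusted p = 0.0805), or -0.755 once heifers 14 and 31 were left out. Heifers 14, 17 and 31 stand apart on Day 60 in the share of miR-22-3p and in the ratio. On log2 TMM-normalised reads heifer 31, at 16.3, lay near heifer 11, at 16.5. Given the share and the ratio, r was also taken over the other 8 heifers, a choice made after the values were seen. It was -0.351 within Day 60 and -0.702 for the changes. Within Day 0 r was -0.679 (permutation p = 0.0218, adjusted p = 0.0728; rho -0.564, permutation p = 0.0757, adjusted p = 0.233), and it rested on heifers 12 and 32, as leaving them out gave -0.0838. In RPMM the Day 0 relation passed, with r at -0.776 (permutation p = 0.00742, adjusted p = 0.0247; rho -0.664, permutation p = 0.0305, adjusted p = 0.0763), and leaving out the same heifers gave -0.475. On the TMM scale none of the 3 rho values passed after adjustment. In RPMM, r over the changes was -0.810 (permutation p = 0.00295, adjusted p = 0.0147) and rho was -0.882 (permutation p = 0.00075, adjusted p = 0.0075).

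The ratio itself was higher on Day 60 in 9 of 11 heifers, by 1.96 ± 1.65 on the log2 scale (SD, n = 11; exact sign-flip permutation test, two-sided p = 0.00488). Heifers 12 and 32, in which it was lower, were 2 of the 3 heifers with more miR-22-3p on Day 60 after TMM. Both parts of the ratio moved: miR-451 rose (log2 fold-change 0.79, edgeR FDR 0.0425) and miR-23a fell (log2 fold-change -1.18, edgeR FDR 0.00837). Over the 22 libraries, with the mean of each day taken out, miR-22-3p had an r of -0.608 with miR-451 and of 0.547 with miR-23a. The part of red cell RNA in the change of miR-22-3p was not tested.

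**Figure D4:**
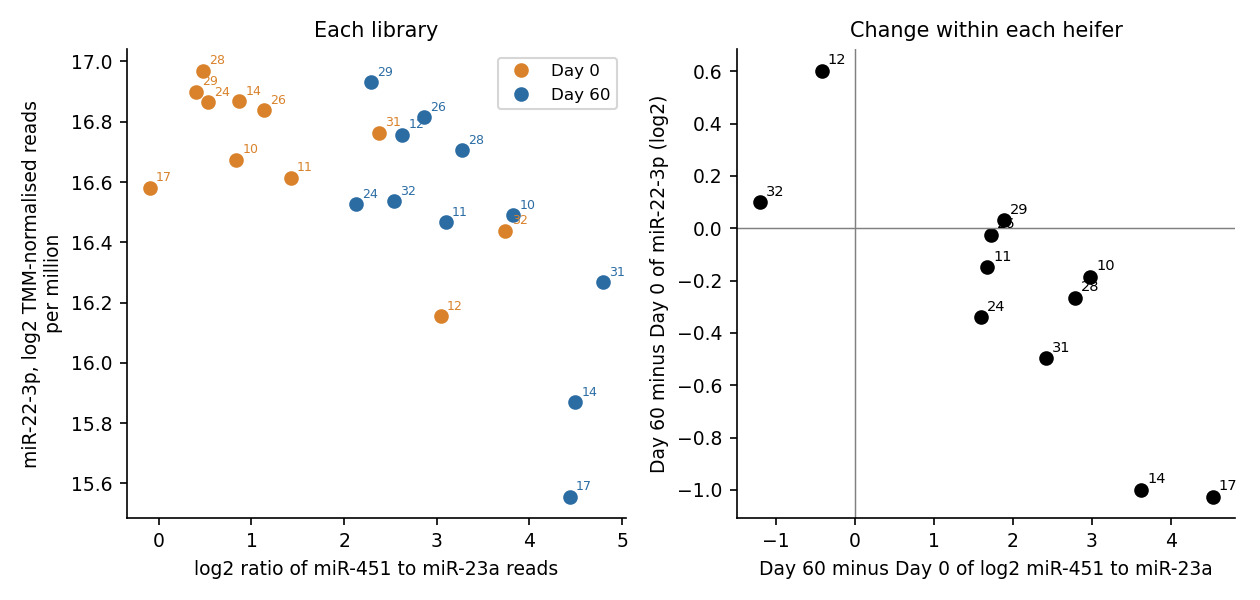
Level of miR-22-3p (log2 TMM-normalised reads per 1000000, vertical axis) against the log2 ratio of miR-451 to miR-23a reads (horizontal axis) in each of the 22 libraries (left), and the changes from Day 0 to Day 60 of both within the 11 heifers (right). Numbers are heifers, orange is Day 0 and blue is Day 60. Heifers 14 and 17 are lowest on Day 60, and r over the changes was -0.835.

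The miRNAs most like miR-22-3p were sought among all other tested miRNAs. Likeness was Pearson's r of log2 TMM-normalised reads over the 22 libraries of the 11 heifers, with the mean of each day taken out. These values are a description, with no test, since all miRNAs share the libraries, their depth and their scaling. The r ran from -0.840 to 0.849 with a median of 0.0707. It was above 0.5 for 45 miRNAs and below -0.5 for 27, and 23 and 14 of them passed these limits on both days taken singly. miR-22-5p, the other arm, ranked only 58 from the highest, at 0.411.

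The highest values were those of miR-6529a (0.849), miR-1388-5p (0.842), miR-296-3p (0.820), miR-10a (0.811) and miR-21-3p (0.784). miR-10a lies in a Hox gene cluster, and miR-21-3p is the minor arm of miR-21, whose major arm had an r of only 0.304. Each of these 5 had a positive r within Day 0, from 0.618 to 0.896, and within Day 60, from 0.799 to 0.910. miR-6529a, like miR-22-3p, was lowest on Day 60 in heifers 17, 14 and 31, at 783, 845 and 1001 RPMM, where the Day 60 median was 2177 and the highest value 3840 RPMM. On Day 0 it ran from 1978 to 4482 RPMM with a median of 3029. None of the 5 passed the test between the days, with edgeR FDR from 0.0915 for miR-296-3p to 0.671 for miR-10a.

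The lowest values were those of miR-16a (-0.840), miR-15a (-0.828), miR-106b (-0.817), miR-15b (-0.809) and miR-16b (-0.788). Of these 5, 4 belong to the miR-15 and miR-16 family, which shares one seed and restrains the cell cycle, and miR-106b lies in a cluster with miR-25. All 5 were negative on both days, from -0.762 to -0.598 on Day 0 and from -0.933 to -0.865 on Day 60. miR-16a was highest on Day 60 in heifer 17, at 20587 RPMM, followed by heifer 14 at 4140 RPMM, with a median of 2571. On Day 0 it ran from 1288 to 3476 RPMM, the highest value in heifer 32. Between the days miR-106b (log2 fold-change 0.83, edgeR FDR 0.0220) and miR-16b (log2 fold-change 0.68, edgeR FDR 0.0487) were higher on Day 60, while miR-16a, miR-15a and miR-15b did not pass (edgeR FDR 0.0669, 0.143 and 0.0883). Without heifer 17 the r of the 5 lay between -0.841 and -0.808.

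miRNAs known from red cells were inverse to miR-22-3p as a list. The list holds miR-16a, miR-15a, miR-15b and miR-16b, already given above among the lowest values. All lists were chosen with earlier results of these data known, so their counts are a description. All 10 listed erythroid miRNAs were tested and all 10 had an r below 0, against 88 of all miRNAs compared with it. One of them, miR-363, changed sign with the setting: its r was 0.40 within Day 0, 0.0941 in RPMM and 0.0714 without heifer 17, so that 9 of 10 were below 0 in each of these. Their median r was -0.660, and r ran from -0.840 for miR-16a to -0.0318 for miR-363. miR-144, transcribed together with miR-451, had an r of -0.696, miR-25 one of -0.624, and miR-486 one of only -0.369. Of the 10, 2 were higher on Day 60 at the edgeR FDR threshold, miR-451 and miR-16b, and 0 were lower, against 17.4% and 17.9% of all tested miRNAs. Together they took 11.2 to 40.5% of the reads on Day 0 and 16.9 to 45.1% on Day 60. In bulk plasma, release from more cells and more RNA per cell cannot be told apart.

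Leukocyte miRNAs were also below 0 over both days, all 8 tested with a median r of -0.370, against 88 of all miRNAs compared and a median of 0.0707. On Day 60 their median was -0.48, against 0.0376 for all compared. On Day 0 it was -0.0706, against 0.260 for all compared. There 6 of the 8 were below 0, while miR-181a and miR-29a were at 0.381 and 0.403. In RPMM the same pair was above 0, at 0.136 and 0.0426, and the median was -0.146. Without heifer 17 all 8 were below 0 with a median of -0.20. The lowest was miR-146a, a regulator of innate immune signalling, at -0.598 (-0.214 without heifer 17), and the highest miR-181a at -0.0774. On Day 60, 3 of the 8 were higher, miR-150, miR-142-5p and miR-155, and 0 were lower, beside 17.4% and 17.9% of all tested miRNAs. In the platelet and endothelial list r had both signs, from -0.361 for miR-24-3p to 0.607 for miR-191 with a median of 0.0786. The sign of miR-24-3p changed with the setting: r was 0.847 within Day 0, -0.605 within Day 60 and 0.680 without heifer 17. In this list 0 of 7 tested miRNAs passed the test between the days, where 35.4% of all tested miRNAs did. These lists overlap in origin, since miR-15, miR-16 and miR-25 are expressed in many cells.

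**Figure D5:**
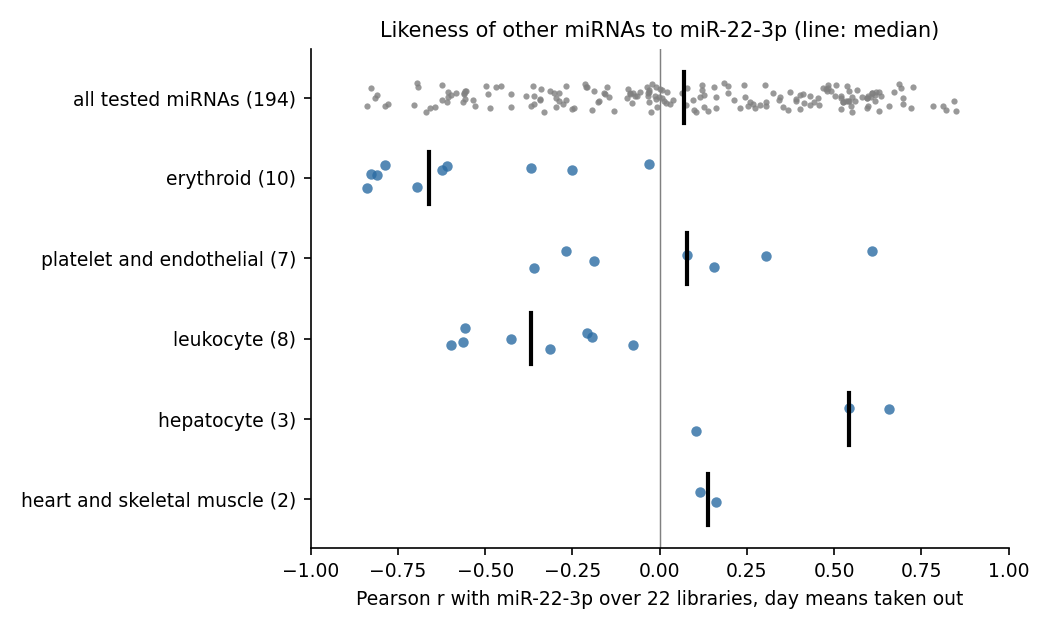
Pearson's r of each tested miRNA with miR-22-3p over 22 libraries, with the mean of each day taken out (horizontal axis), for all other tested miRNAs (grey) and for 5 lists by cell of origin (blue, number tested in brackets). Each point is 1 miRNA, its height within a row has no meaning, and black lines are medians. The erythroid list lies wholly below 0 with a median of -0.660.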

How the data were processed

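Small RNA libraries of 22 plasma samples were made with the TruSeq Small RNA kit and sequenced as 36-base single reads. The authors mapped reads to bosTau4 with Bowtie 0.12.9 inside sRNAbench, allowing a mismatch, counted them on miRBase entries, and deposited read counts for 611 bovine miRNAs and 233 human homologues. The deposited normalised table, in RPMM, is treated as a score because bovine and human rows are scaled separately. RPMM here are per 1000000 miRNA reads of both kinds. Depth per library is given above, and Wilson intervals (95%) cover counting error only.

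Days were compared on the counts with edgeR 4.0.16 in R 4.3.3 (quasi-likelihood F test), using TMM, a term for each heifer, and Benjamini-Hochberg adjustment. The 195 tested miRNAs exceeded 25 RPMM in more than 8 Day 0 or more than 8 Day 60 libraries. SE is the log2 fold-change divided by the root of F. Shares, spread and ratios (pseudocount 0.5 read) were tested by exact sign-flip over 2048 patterns, and correlations by 100000 permutations, on log2 values with a prior of 1 read. Pairs follow the animal number in the labels. As deviations from day means, libraries of one heifer correlated across miRNAs at a mean of 0.137, against -0.00645 between heifers. The correlation was above 0.1 in only 6 of the 11 pairs.

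The miRNA and all lists were chosen with earlier results of these data known. Named miRNAs are both arms of miR-22, its neighbours in level, the partners in ratios, the 5 highest and 5 lowest in likeness, the extremes of each list, and any above 15% of the reads of a library low in miR-22-3p. miR-144, miR-25, miR-150, miR-142-5p, miR-155, miR-29a, miR-122 and miR-10b were named after their values were seen. Alternatives were other scalings, DESeq2 1.42.0, likelihood ratio tests, limma 3.58.1, omission of the block, different filters, thinning, and leaving out single heifers. Steps were tested on simulated data. Other steps used scipy 1.17.1, numpy 2.4.6 and pandas 2.3.3 under Python 3.11.15, with figures by matplotlib 3.10.9.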

Additional observations from a re-analysis of the deposited data

How the results depend on the processing

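The fall of miR-22-3p kept its sign under all 24 alternatives. Its log2 fold-change passed the edgeR FDR threshold under upper quartile scaling alone (-0.41, FDR 0.0433), over a range of FDR from 0.0433 to 0.675, and was -0.33 to -0.18 with each heifer left out. miR-22-5p kept its sign in all 24 but did not pass with scaling to miR-128 (-0.59, edgeR FDR 0.0589), with no filter (-0.60, edgeR FDR 0.150) or without heifer 28, with a range of -0.82 to -0.60 over heifers left out. Without heifer as a block, miR-22-3p was at -0.22 (edgeR FDR 0.217) and miR-22-5p at -0.68 (edgeR FDR 0.00923). The number of miRNAs past the threshold, 69, was 83 without the block and 35 to 97 with each heifer left out, the low values being 44, 43 and 35 when heifers 10, 11 and 28 were omitted. The fall in share held in all 13 alternatives run for it (exact sign-flip test, p from 0.00391 to 0.0391). Taking the median of the differences turned the ratio to miR-128 to 0.0052 and ended the call for miR-21-5p (-0.61, adjusted p = 0.125). The ratio to miR-22-5p was 0.34 to 0.54 with each heifer left out. The relation of Day 0 with Day 60 levels turned to -0.20 in RPMM. Of the 10 miRNAs named for likeness, 7 remained with Spearman's rho, 7 in RPMM, 8 without heifer 17 and 4 on within-heifer differences. The causes were not tested. Thinned to the shallowest library, miR-22-3p was at -0.30 (edgeR FDR 0.0969). The depth limits miR-22-5p in the shallowest library more than miR-22-3p.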

Other observations

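Among the 6 miRNAs of the highest mean level, all but miR-486 had an r above 0 with miR-22-3p. With the mean of each day taken out, r over the 22 libraries was 0.685 for miR-27b, 0.543 for miR-192 and 0.538 for miR-10b, against 0.303 for miR-143 and -0.369 for miR-486. Without heifer 17 the values were 0.598, 0.483, 0.329, 0.231 and -0.588 in the same order. In RPMM, where all of them share one total, miR-486 was at -0.642. Between the days miR-143 rose (log2 fold-change 1.63, edgeR FDR 0.00866), while miR-27b, miR-192, miR-10b and miR-486 did not pass (edgeR FDR 0.451, 0.485, 0.0894 and 0.236).

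Of the 5 listed hepatocyte miRNAs 3 were tested, and all had an r above 0, as had 106 of all miRNAs compared. Their r ran from 0.105 for miR-194 to 0.656 for miR-148a, with a median of 0.543, against 0.0707 for all compared. The list stood above all compared mostly on Day 60, where the medians were 0.602 and 0.0376. Within Day 0 the medians were close, at 0.286 and 0.260. Without heifer 17 they were 0.449 and 0.141. miR-122, the main hepatocyte miRNA, did not pass the filter on low levels. It lay between 19.1 and 151 RPMM on Day 0 and between 5.17 and 22843 RPMM on Day 60, with medians of 43.0 and 43.4. The highest value was that of heifer 17 on Day 60, the shallowest library and one of the 3 lowest in miR-22-3p. For heart and skeletal muscle, where miR-22 is also abundant in human and mouse, only 2 of 7 listed miRNAs were tested. These were miR-133a with an r of 0.160 and miR-499 with one of 0.117. Within Day 0 their r was 0.469 and 0.443, and within Day 60 it was 0.0374 and -0.0342. No tested miRNA of either list changed between the days at the edgeR FDR threshold (0 of 3 and 0 of 2), where 35.4% of all tested miRNAs did.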
